A study of Mus musculus with 4 samples.

Results

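Cycling G2/M macrophages is the name used here for cells that carried transcripts of several genes of G2 and mitosis. They were found among bone marrow macrophages that had or had not engulfed dying cancer cells. They were chosen by their measured values. A cell was a barcode with at least 200 genes, at least 1000 unique molecular identifiers (UMIs, one for each captured RNA molecule) and at most 10% of UMIs from mitochondrial genes. A cycling cell had at least 1 UMI of at least 5 of 10 G2/M genes, which were Cenpf, Hmmr, Nusap1, Birc5, Ccna2, Aspm, Prc1, Cdc20, Plk1 and Top2a, and fewer than 10 UMIs in sum of the neutrophil granule genes Elane, Prtn3, Mpo and Ctsg. This rule found 944 cycling cells among 36794 cells and left 35850 remaining cells.

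The macrophages were grown from the bone marrow of male C57BL/6J mice. Their age was 4 weeks in the study's caption for the single-cell experiment and 4 to 6 weeks in its general methods. Culture lasted 4 days with M-CSF at 30 ng/mL, so that every group had been given this macrophage growth factor. Macrophages were then co-cultured at 1 macrophage per cancer cell for 16 to 18 h, in αMEM with 0.25% FBS, with RM1 cells, a mouse prostate cancer line transformed by Ras and Myc. The RM1 cells had been labelled with the dye CFSE and killed by 30 minutes of UV light. Cells were sorted as efferocytic (F4/80+CFSE+, having taken up dye) or non-efferocytic (F4/80+ without it), and single-cell 3′ libraries were made from 1 efferocytic and 1 non-efferocytic sample in each of 2 experiments. The study's discussion calls the non-efferocytic cells macrophages alone, while its methods describe a co-culture and then the sort of both groups. Whether the non-efferocytic cells met RM1 cells is thus not settled here. Not engulfing and not meeting dying cells therefore cannot be told apart in this group. The methods state at least 3 independent mice per group for the macrophage experiments, but not how many mice stood behind each library. The p-values therefore rest on these 4 libraries and not on a known number of mice.

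A dividing cell copies its DNA in S phase, prepares in G2 and separates its chromosomes in M phase. Genes of these phases are switched on in waves, with the replication genes driven by E2F factors first and the mitotic genes driven by the MuvB complex with B-Myb and FoxM1 later. Macrophages grown from marrow divide in response to M-CSF through its receptor Csf1r, and most leave the cycle as they mature.

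The files held between 6695 and 13411 cells per library, with between 101216659 and 155224183 UMIs in those cells. In Exp. 1, 196 of 8280 non-efferocytic and 155 of 6695 efferocytic cells were cycling. In Exp. 2, 275 of 13411 non-efferocytic and 318 of 8408 efferocytic cells were cycling. The efferocytic libraries were the deeper ones. Cycling cells held a median of 16657.5 and 14317 UMIs in the non-efferocytic libraries of Exp. 1 and Exp. 2, and 25540 and 21365.5 UMIs in the efferocytic libraries. The remaining cells held 11056, 9490.5, 17020.5 and 17361.5 UMIs in the same order, so that the cycling cells were the deeper cells in every library. Barcodes were shared by the 2 libraries of Exp. 2 in 118 cases, where 16.6 would match by chance, against 14 to 23 in each other pair of libraries.

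The name macrophage was checked against 15 identity genes. At least 8 of these were detected in 94.4% and 91.6% of the cycling cells of the non-efferocytic libraries and in 95.5% and 95.3% of those of the efferocytic libraries. Detection of these genes did not by itself separate macrophages from other cells, because 16 of 23 and 13 of 31 non-efferocytic and 3 of 10 and 4 of 14 efferocytic cycling cells that carried genes of other cell types also had 8 or more. Such cells were a minority, although the sort took F4/80+ cells. More than 1% of UMIs came from 7 mature neutrophil genes such as S100a8, S100a9 and Ngp in 17 and 23 non-efferocytic and in 7 and 5 efferocytic cycling cells. More than 0.2% came from 8 fibroblast genes such as Col1a1 in 6, 7, 3 and 8 cells in the same order, and more than 0.1% came from 10 epithelial genes such as Krt8 in 0, 1, 0 and 1 cells.

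These cells with markers of other types made up 11.7% and 11.3% of the cycling cells in the non-efferocytic libraries and 6.45% and 4.40% in the efferocytic libraries. Among the remaining cells they made up 0.505% to 1.39%. All 7 neutrophil genes were detected in the cycling cells of each library, and their summed level was 24759 and 18707 UMIs per 1000000 (CPM) in the non-efferocytic and 6151 and 2715 CPM in the efferocytic libraries. The fibroblast genes stood at 1175 and 908 CPM in the non-efferocytic and at 414 and 538 CPM in the efferocytic libraries, with Lum at 0 in all but the non-efferocytic library of Exp. 2. The epithelial genes stood at 13.5 and 319 CPM in the non-efferocytic and at 0.922 and 189 CPM in the efferocytic libraries. Krt8 and Krt18 were at 0 in the cycling cells of both libraries of Exp. 1. In Exp. 2, 1 epithelial-rich cycling cell in each library carried the same barcode, and without shared barcodes the epithelial genes stood at 2.33 CPM in the non-efferocytic and 0.272 CPM in the efferocytic library. Whether barcodes crossed between these libraries was not tested. The study lists RM1 as a fibroblast-like prostate cancer line. Its part in the fibroblast and epithelial UMIs, and in the S phase and mitotic UMIs given below, was not tested. Doublet scores marked 9 and 29 of the non-efferocytic and 6 and 15 of the efferocytic cycling cells. Because the cells with markers of other types moved with the group, the leading counts are also given without them.

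The 10 genes of the rule encode proteins of the mitotic machinery. Cenpf binds kinetochores, Hmmr, Nusap1, Aspm and Prc1 act on spindle microtubules, Birc5 belongs to the chromosomal passenger complex, Ccna2 is the S and G2 cyclin, Cdc20 activates the anaphase-promoting complex, Plk1 is a mitotic kinase and Top2a disentangles DNA. Their levels in these cells chose the cells and are given without a test. Summed over the 10 genes, cycling cells held 2295 and 1928 CPM in the non-efferocytic and 1860 and 1945 CPM in the efferocytic libraries, and the groups overlapped. Remaining cells held 30.4 and 44.2 CPM in the non-efferocytic and 15.7 and 24.9 CPM in the efferocytic libraries. Barcodes of at most 100 UMIs, which hold mostly free RNA, held 156, 85.6, 153 and 93.6 CPM in the same order.

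Birc5 was the most abundant of the 10, at 590 and 584 CPM in the non-efferocytic and 500 and 546 CPM in the efferocytic libraries. Cenpf stood at 309 and 226 CPM in the non-efferocytic and at 191 and 167 CPM in the efferocytic libraries. Aspm stood at 126 and 101 CPM against 64.3 and 73.3 CPM, and Hmmr at 226 and 187 CPM against 145 and 149 CPM. For these 4 genes, and by a small margin for Cdc20, both efferocytic libraries were below both non-efferocytic libraries, as for 30.5% of the 10547 genes tested in cycling cells. For Ccna2, at 140 and 125 CPM against 149 and 177 CPM, and for Top2a, at 279 and 238 CPM against 296 and 311 CPM, both efferocytic libraries were above, as for 27.1% of all genes. CPM of a 3′ library count molecules and not bases, so these levels need no correction for length.

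**Figure D1:**
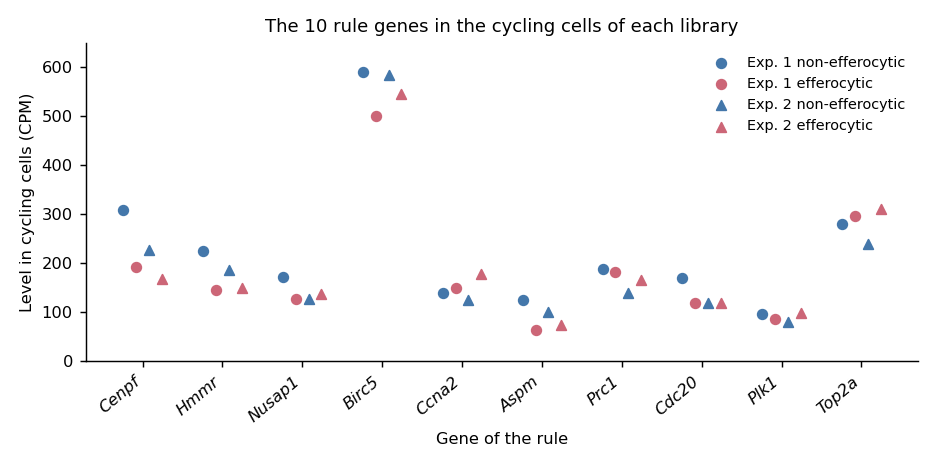
Level in CPM (vertical axis, from 0) of each of the 10 genes that chose the cycling cells, with 1 point per library, circles for Exp. 1, triangles for Exp. 2, blue for non-efferocytic and red for efferocytic. Birc5 was highest in each library, from 500 to 590 CPM, and the red points of Cenpf, Hmmr and Aspm lay below the blue ones.

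Cycling cells differed in how many of the 10 genes they showed. All 10 were detected in 52 and 54 cycling cells of the non-efferocytic libraries and in 57 and 103 of the efferocytic libraries. Exactly 5 were detected in 24 and 55 cycling cells of the non-efferocytic and 18 and 38 of the efferocytic libraries, the cells just inside the rule. Just outside it, with 4 genes and few neutrophil granule UMIs, were 38 and 68 non-efferocytic and 16 and 59 efferocytic cells. The 10 genes summed to 748 and 944 CPM just inside and to 722 and 734 CPM just outside in the non-efferocytic libraries, and to 531 and 680 CPM against 476 and 425 CPM in the efferocytic libraries. The neutrophil granule condition removed 22 and 41 non-efferocytic and 9 and 11 efferocytic cells that had at least 5 of the 10 genes.

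The sequences just upstream of 4 genes are printed as examples of the elements found near genes of mitosis and of replication. They are the 250 bases before the transcription start of Cdc20, a gene of the rule, of Ccnb2, a mitotic cyclin gene, and of Mcm6 and Mcm5, subunits of the helicase that opens DNA at replication origins. Sequences are from RefSeq (GRCm38.p6), 5′ to 3′ on the gene's strand, at chr4:118437344-118437593 (minus strand) for Cdc20, chr9:70421555-70421804 (minus strand) for Ccnb2, chr1:128359706-128359955 (minus strand) for Mcm6 and chr8:75109259-75109508 (plus strand) for Mcm5. Capitals mark matches to the letters of elements. In Cdc20 and Ccnb2 these are the cell cycle genes homology region (CHR, a MuvB element) and the CCAAT box (an NF-Y element), and in Mcm6 and Mcm5 the E2F element. In Ccnb2 the CHR match lies 167 to 162 bases before the start, upstream of all its CCAAT matches. Mcm6 and Mcm5 also hold the letters of the CCAAT box, on the printed strand in Mcm5 and on the other strand in Mcm6, left in lower case.
Cdc20: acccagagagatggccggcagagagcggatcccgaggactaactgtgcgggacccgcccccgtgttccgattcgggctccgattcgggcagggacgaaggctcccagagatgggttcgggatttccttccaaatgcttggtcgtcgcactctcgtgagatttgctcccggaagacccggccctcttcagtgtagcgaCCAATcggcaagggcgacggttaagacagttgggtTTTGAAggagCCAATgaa
Ccnb2: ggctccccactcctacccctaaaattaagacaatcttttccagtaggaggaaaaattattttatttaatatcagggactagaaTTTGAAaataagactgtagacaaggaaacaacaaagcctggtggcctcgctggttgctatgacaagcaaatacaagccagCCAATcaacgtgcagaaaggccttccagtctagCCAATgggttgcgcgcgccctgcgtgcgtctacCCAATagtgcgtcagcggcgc
Mcm6: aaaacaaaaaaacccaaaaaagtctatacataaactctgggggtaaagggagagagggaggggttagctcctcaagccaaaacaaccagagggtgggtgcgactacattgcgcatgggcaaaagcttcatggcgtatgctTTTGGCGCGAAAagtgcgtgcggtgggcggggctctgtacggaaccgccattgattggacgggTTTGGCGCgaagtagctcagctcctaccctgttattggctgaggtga
Mcm5: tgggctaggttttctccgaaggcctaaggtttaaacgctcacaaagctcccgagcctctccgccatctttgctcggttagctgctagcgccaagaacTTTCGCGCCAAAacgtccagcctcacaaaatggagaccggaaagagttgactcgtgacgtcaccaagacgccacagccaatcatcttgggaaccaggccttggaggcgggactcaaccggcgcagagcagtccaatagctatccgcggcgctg

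The CHR was searched as TTTGAA or TTCGAA, the CCAAT box as CCAAT, and the E2F element as TTTCCCGC, TTTCGCGC, TTTGCCGC or TTTGGCGC, each on both strands, so that overlapping E2F matches were possible. A CHR was found before 6 of 11 matched mitotic entry genes (54.5%), 10 of 20 spindle genes (50%), 3 of 9 genes of the rule (33.3%), 3 of 14 kinetochore genes (21.4%) and 4 of 25 S phase genes (16%), against 19.6% of all promoters. The CCAAT box was found before 9 of 11 mitotic entry genes (81.8%), 13 of 20 spindle genes (65%), 7 of 9 rule genes (77.8%), 9 of 14 kinetochore genes (64.3%) and 14 of 25 S phase genes (56%), against 37.5% of all promoters. An E2F match stood before 6 of 25 S phase genes (24%), 1 of 11 mitotic entry genes (9.09%), 1 of 20 spindle genes (5%), 0 of 14 kinetochore genes and 0 of 9 rule genes, against 2.16% of all promoters. A match is only a match of letters.

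The first comparison asked what share of the cells in each group met the rule. The rule includes the S and G2 cyclin Ccna2, so cells that met it may also be in S phase. Cycling cells made up 2.37% (95% exact binomial interval 2.05 to 2.72%) of the non-efferocytic and 2.32% (1.97 to 2.70%) of the efferocytic cells in Exp. 1. In Exp. 2 they made up 2.05% (1.82 to 2.31%) of the non-efferocytic and 3.78% (3.38 to 4.21%) of the efferocytic cells. Intervals cover counting error only. The share was thus within counting error in Exp. 1, at -0.052 percentage points, and 1.73 percentage points or 1.84-fold higher in the efferocytic library of Exp. 2. Over the libraries the mean was 2.21 ± 0.224% (SD, n = 2) in non-efferocytic and 3.05 ± 1.04% (SD, n = 2) in efferocytic cells, and the difference was not larger than the spread (exact permutation test over libraries, two-sided, p = 0.667, where 0.333 is the smallest p that 2 against 2 libraries allow).

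Detection of 5 genes needs depth, so the rule was also applied after each cell of at least 5000 UMIs was thinned to 5000 UMIs, which used 7181 and 10007 non-efferocytic and 6151 and 7903 efferocytic cells. The share was then 1.84% and 1.42% in the non-efferocytic and 1.27% and 2.33% in the efferocytic libraries of Exp. 1 and Exp. 2 (exact permutation p = 1). The ratio of efferocytic to non-efferocytic was 0.690 in Exp. 1 and 1.64 in Exp. 2, so the experiments moved in opposite directions. The non-efferocytic library of Exp. 2 held 3391 remaining cells under 5000 UMIs. Among cells of at least 5000 UMIs without thinning, the ratio was 0.939 in Exp. 1 and 1.52 in Exp. 2. Among cells called by the rule of Cell Ranger it was 0.970 and 1.58. Without the cells carrying markers of other types, the shares were 2.12% and 2.18% in Exp. 1 and 1.85% and 3.64% in Exp. 2 (exact permutation p = 0.333).

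**Figure D2:**
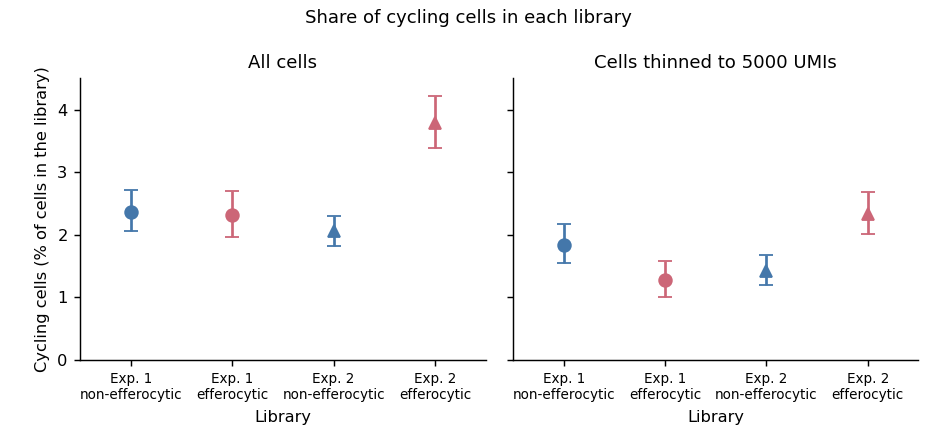
Share of cycling cells in each library (vertical axis, % of its cells, from 0) with 95% exact binomial intervals, in all cells and after thinning to 5000 UMIs. The efferocytic library of Exp. 2 was highest in both panels, at 3.78% and 2.33%, and the efferocytic library of Exp. 1 was not above its non-efferocytic partner.

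Summed over all cells of a library, the rule genes do not depend on a threshold per cell. Their sum was 112 and 109 CPM in the non-efferocytic and 79.7 and 117 CPM in the efferocytic libraries, and the groups overlapped. In edgeR's quasi-likelihood test with the experiment as a block, 1 of the 10 genes passed an adjusted p of 0.05, where 38.9% of 13869 genes did (19.9% higher, the rest lower). This was Cenpf, which fell by 0.43 on the log2 scale in efferocytic cells (adjusted p = 0.0324). The call was lost when the block was left out and with DESeq2.

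Compared with the remaining cells of the same library, cycling cells carried most of the mitotic program at many times the level. This contrast is the one that chose them, so it is described without a test. Of 7404 genes averaging 10 CPM or more, 344 (4.65%) were at least 2-fold higher in cycling cells in all 4 libraries and 6 (0.0810%) at least 2-fold lower. Without cells carrying markers of other types these numbers were 261 (3.53%) and 1 (0.0135%), and against remaining cells matched for depth they were 298 (4.02%) and 3 (0.0405%). Log2 ratios were taken on CPM plus 1.

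All 25 genes of a spindle and cytokinesis list were at least 2-fold higher in all 4 libraries, with a median log2 ratio of 4.43. So were 14 of 15 kinetochore and checkpoint genes (median 4.2), 11 of 13 mitotic entry genes (3.99), 14 of 15 chromosome structure genes (2.98), 18 of 25 S phase genes (1.88) and 5 of 9 anaphase genes (1.58) that reached 10 CPM. Among G1 cyclins and CDK inhibitors, which act before replication, 3 of 17 were (median 0.58). The spindle, kinetochore and mitotic entry lists thus stood furthest above the remaining cells, the anaphase list stood under the S phase list, and the G1 list was lowest of these.

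Outside the rule, the gene whose smallest log2 ratio over the 4 libraries was largest was Pimreg, which encodes a mitotic regulator, at 5.34. It stood at 93.4 and 84.2 CPM in the non-efferocytic and 72.1 and 78.8 CPM in the efferocytic cycling cells, and at 0.615 and 1.11 CPM and 0.182 and 0.393 CPM in the remaining cells. The next by this measure were the kinesins Kif2c (5.12) and Kif20a (4.92), the spindle protein genes Ckap2 (4.84) and Ckap2l (4.78), the spindle motor gene Kif11 (4.80), the kinetochore motor gene Cenpe (4.77), the mitotic kinase gene Nek2 (4.60), the cytokinesis gene Anln (4.57) and the spindle assembly factor gene Tpx2 (4.53). Ccnb1, the cyclin that activates Cdk1 for mitosis, stood at 173 and 141 CPM in the non-efferocytic libraries and at 139 and 147 CPM in the efferocytic libraries, against 2.34 to 6.58 CPM in remaining cells. Mki67, the classical proliferation marker, stood at 347 and 272 CPM against 272 and 317 CPM, where remaining cells held 7.82 to 14.3 CPM.

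Most macrophage identity genes were lower in the cycling cells. Cells with markers of other types made up 4.40% to 11.7% of cycling cells and 0.505% to 1.39% of remaining cells. Of 15 macrophage identity genes, 12 were lower in all 4 libraries (24.7% of the 7404 genes were) and none was lower by 2-fold in all 4, with a median log2 ratio of -0.45. Adgre1, which encodes F4/80, stood at 267 and 282 CPM in the non-efferocytic libraries and at 272 and 247 CPM in the efferocytic libraries, against 534, 509, 385 and 355 CPM in the remaining cells. The 6 genes that were at least 2-fold lower in every library included Selenop, which encodes a secreted selenium carrier, with 1055 and 1135 CPM in the cycling cells of the non-efferocytic and 633 and 441 CPM in those of the efferocytic libraries, against 3138, 2663, 1528 and 896 CPM in remaining cells. The others were Fbxo32, the immunoglobulin gene Ighm, Slfn5, Atp6v0d2 and Gpr155, and the log2 ratio nearest 0 was -1.30 for Fbxo32 and -1.18 for Ighm. Against depth-matched remaining cells 3 genes were 2-fold lower in every library, and without cells carrying markers of other types 1 was.

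The main comparison asked how efferocytic and non-efferocytic cycling cells differed. UMIs were summed over the cycling cells of each library and the 4 sums were compared with edgeR's quasi-likelihood test with the experiment as a block. Of 10547 genes tested, 960 (9.10%) were higher and 1131 (10.7%) lower in efferocytic than in non-efferocytic cycling cells at an adjusted p under 0.05, together 19.8%. Without cells carrying markers of other types 1207 were higher and 1316 lower, and after thinning to 5000 UMIs 264 and 359 of 6785 genes. DESeq2 called 168 and 227 genes. A sum cannot tell more cells expressing a gene from more RNA per cell. Cycling cells of efferocytic libraries held more UMIs, and scaling by the number of cells in place of TMM moved the median of all genes by 0.487 (log2), so that fold changes are relative to the other genes.

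The replication genes of S phase rose together in efferocytic cycling cells. The engulfed RM1 cells are also mouse cells, and their part in these UMIs was not tested. Of 30 S phase genes, 26 rose and none fell, with a median log2 fold change of 0.80, where 9.10% of all genes rose and their median lay near 0. Their summed level was 1078 and 1086 CPM in the non-efferocytic and 1722 and 1976 CPM in the efferocytic libraries, and 28 of the 30 genes had both efferocytic libraries above both non-efferocytic libraries (27.1% of all genes did). The 4 genes that did not pass were Mcm4 (0.45, adjusted p = 0.102), Cdc45 (0.41, adjusted p = 0.152), Prim1 (0.40, adjusted p = 0.0986) and Dut (0.20, adjusted p = 0.264).

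Pcna, the sliding clamp of DNA polymerases, stood at 126 and 149 CPM in the non-efferocytic and at 297 and 329 CPM in the efferocytic libraries, a log2 fold change of 1.21 ± 0.12 (SE; adjusted p = 5.4e-06). The groups were far apart in both experiments. Chaf1b, a subunit of the factor that places histones on new DNA, stood at 11.3 and 12.3 CPM against 28.6 and 32.9 CPM (1.39 ± 0.17, adjusted p = 5.11e-05). Ung, which removes uracil from DNA, had the largest fold change of the list (1.66 ± 0.44, adjusted p = 0.014) but low levels, at 4.12 and 0.627 CPM (15 and 3 UMIs) against 7.83 and 5.34 CPM (34 and 40 UMIs).

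Of the replicative helicase genes of the list, Mcm2, Mcm3, Mcm5, Mcm6, Mcm7 and Gins2 rose, and Mcm4 and Cdc45 did not pass. Mcm6 stood at 36.0 and 28.8 CPM in the non-efferocytic and 62.0 and 76.9 CPM in the efferocytic libraries (1.14 ± 0.14, adjusted p = 5.18e-05), and Mcm5 at 40.7 and 29.7 CPM against 66.4 and 78.1 CPM (1.08 ± 0.14, adjusted p = 8.79e-05). These are the genes whose upstream E2F matches are printed above. Mcm2 stood at 14.6 and 12.8 CPM against 30.9 and 36.9 CPM (1.34 ± 0.17, adjusted p = 6.34e-05), although its fold change was -0.11 in thinned cells.

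Tk1, Rrm2 and Lig1, genes of enzymes that supply deoxynucleotides or join DNA, also rose, while Dut of the same list did not pass. Tk1, which encodes thymidine kinase, stood at 45.1 and 52.5 CPM in the non-efferocytic and at 87.1 and 96.6 CPM in the efferocytic libraries (0.93 ± 0.12, adjusted p = 5.47e-05). Rrm2, a subunit of ribonucleotide reductase, stood at 46.7 and 56.9 CPM against 74.4 and 100 CPM (0.77 ± 0.11, adjusted p = 0.000254). Lig1, which encodes DNA ligase I, stood at 48.9 and 49.3 CPM against 81.3 and 100 CPM (0.91 ± 0.12, adjusted p = 7.04e-05). For each of these 3 genes the groups did not overlap.

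**Figure D3:**
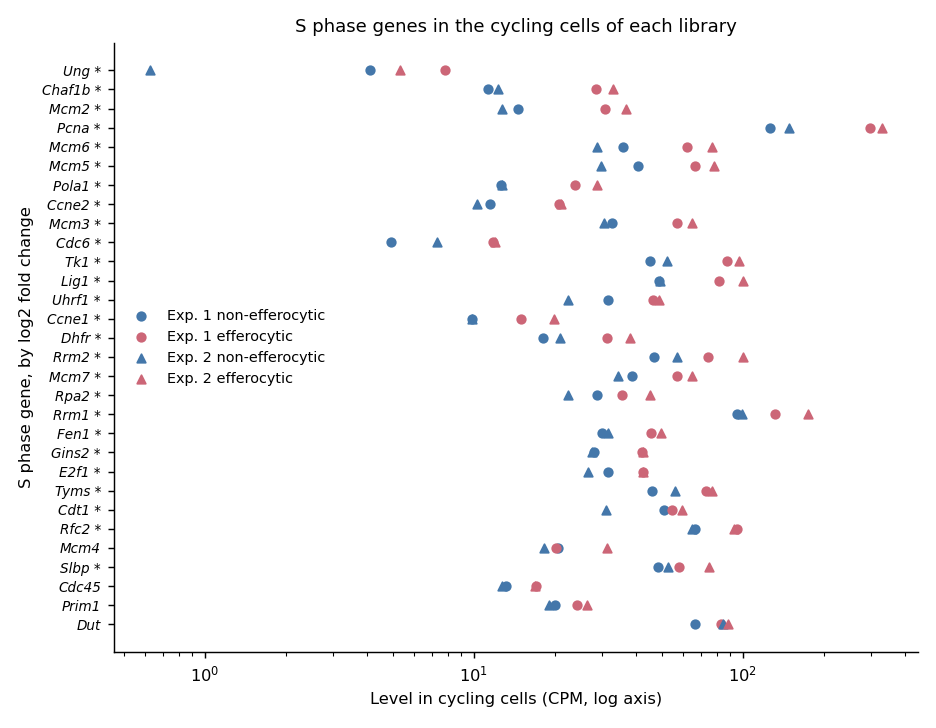
Level in CPM (horizontal log axis) of each of 30 S phase genes in the cycling cells of each library, ordered by log2 fold change, with blue for non-efferocytic, red for efferocytic, circles for Exp. 1, triangles for Exp. 2 and a star beside genes with an adjusted p under 0.05. The red points lay to the right of the blue ones for 28 of 30 genes.

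The S phase difference was also seen cell by cell. The S phase genes took a median of 6.55 and 6.07 UMIs per 10000 in non-efferocytic and 11.6 and 12.0 in efferocytic cycling cells, with quartiles of 4.47 to 9.62 and 4.19 to 10.1 against 6.65 to 24.4 and 6.63 to 25.1. The medians of both efferocytic libraries lay above the upper quartiles of both non-efferocytic libraries. In cycling cells of at least 5000 UMIs thinned to 5000, Rrm2 was detected in 12.7% and 16.8% of non-efferocytic and 29.6% and 33.1% of efferocytic cells, against 26.0%, 30.2%, 61.9% and 57.2% unthinned. Among remaining cells, thinned detection of Rrm2 was 0.558% and 0.862% against 0.717% and 0.975%.

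Several measured quantities moved with this result. With the rule applied to thinned cells, the S phase genes summed to 941 and 1124 CPM in the non-efferocytic and 1536 and 1767 CPM in the efferocytic libraries, so both efferocytic libraries stayed above both non-efferocytic libraries at equal depth. There, 5 of the 25 testable genes passed and the median was 0.63, where 264 of all 6785 genes tested rose. Without cells carrying markers of other types the sums were 792 and 857 CPM against 1727 and 1937 CPM, all 30 genes rose and the median was 1.18. In that fit 12.2% of all genes rose. Barcodes of at most 100 UMIs held S phase genes at 499 and 376 CPM in the non-efferocytic and 602 and 510 CPM in the efferocytic libraries, a smaller difference than in the cycling cells. With no block for the experiment, 22 of the 30 genes passed, where 579 of all 10547 genes rose. When 1 library was left out as well, between 12 (without the efferocytic library of Exp. 2) and 23 of the 30 genes passed, with 14 without the non-efferocytic library of Exp. 1 and 18 without that of Exp. 2. DESeq2 called 10.

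The S phase genes were higher at each number of rule genes. In cells with all 10 rule genes, they summed to 908 and 980 CPM in the non-efferocytic and 1272 and 1595 CPM in the efferocytic libraries. In cells with exactly 5 rule genes, they summed to 1084 and 691 CPM against 2412 and 1564 CPM. The kinetochore genes, in contrast, stood higher in cells with 10 than in cells with 5 rule genes in each library, going from 737 and 924 CPM at 5 genes to 2289 and 2121 CPM at 10 genes in the non-efferocytic libraries and from 651 and 722 CPM to 1979 and 1965 CPM in the efferocytic libraries.

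**Figure D4:**
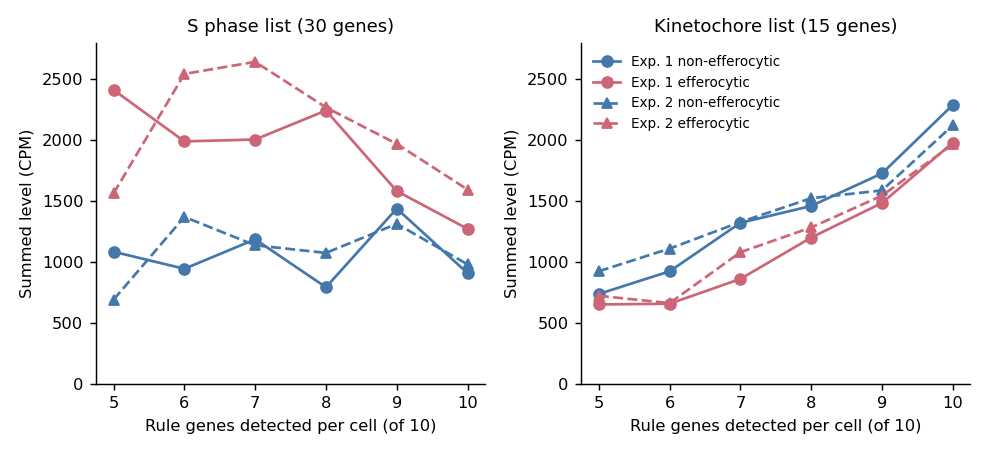
Summed level in CPM (vertical axes, from 0) of 30 S phase genes and 15 kinetochore genes in cycling cells grouped by how many of the 10 rule genes they showed (horizontal axes), with 1 line per library. The S phase lines of the efferocytic libraries ran above those of the non-efferocytic libraries at each number, while the kinetochore lines stood higher at 10 than at 5 rule genes in all 4 libraries.

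Summed over all remaining cells of a library, the S phase changes were smaller. These cells include those with some but fewer than 5 rule genes, and those the granule condition removed. There, 21.2% of 13705 genes rose and 20.8% fell (42.0% in all), 15 of the 30 S phase genes rose and none fell, with a median log2 fold change of 0.27, and the genes summed to 361 and 380 CPM in the non-efferocytic against 401 and 502 CPM in the efferocytic libraries. In remaining cells with 4 rule genes and few granule UMIs, the S phase genes summed to 611 and 847 CPM in the non-efferocytic libraries. The efferocytic libraries held 2321 and 1810 CPM there, from 16 and 59 cells against 38 and 68. With 3 rule genes the sums were 540 and 719 CPM against 833 and 1828 CPM. A higher efferocytic S phase sum was thus also seen in cells just outside the rule, where it was not tested. The difference between the efferocytic effect in cycling and in remaining cells was tested with an interaction term and the library as a block. It passed for 13 of the 30 genes, each with the higher efferocytic effect in cycling cells, where 1.66% of 13837 genes passed in that direction. Without cells carrying markers of other types 17 passed, where 215 of all 12987 genes passed upward. Against depth-matched remaining cells 6 passed (245 of all 11716 genes did), with DESeq2 6 (78 of 13837) and with no block 0 (0 of 13837). Upward interactions were not particular to this list, since they also passed for 7 of 25 spindle, 6 of 15 chromosome structure and 5 of 15 macrophage identity genes.

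Among these 13, Tk1 had an interaction log2 fold change of 1.37 ± 0.20 (adjusted p = 0.00217). It was not called in the remaining cells (-0.34, adjusted p = 0.0945), at 3.24 and 4.09 CPM in the non-efferocytic and 1.90 and 3.63 CPM in the efferocytic libraries. Lig1 differed by 0.97 ± 0.12 (adjusted p = 0.000635), Rrm2 by 0.97 ± 0.16 (adjusted p = 0.00484), Chaf1b by 1.01 ± 0.19 (adjusted p = 0.0108) and Pcna by 0.73 ± 0.09 (adjusted p = 0.000368). Mcm2, Mcm3 and Mcm5 rose in both kinds of cells, and their interaction did not pass (0.30, 0.32 and 0.21).

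Among the genes named for the size of their change were 3 histone genes. Hist1h1b, a linker histone gene, stood at 30.2 and 37.4 CPM in the non-efferocytic and at 104 and 92.4 CPM in the efferocytic cycling cells (1.53 ± 0.14, adjusted p = 2.24e-06), and fell by 1.10 in the remaining cells (interaction 2.75 ± 0.24, adjusted p = 1.92e-05). Hist1h2ap stood at 256 and 749 CPM against 916 and 1439 CPM (1.40 ± 0.19, adjusted p = 0.000121). Hist1h1e rose by 0.75 ± 0.16 (adjusted p = 0.00319). These genes belong to a family of close copies, and most histone mRNAs lack the poly(A) tail the kit primes on, so single histone values are uncertain.

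The mitotic lists moved little and in both directions. The rule chose the cells of both groups by mitotic genes, so it also bears on these levels, and how far was not tested. Of 25 spindle and cytokinesis genes, 3 fell and none rose (median -0.09). With DESeq2 0 of these 25 passed, with no block 2 fell, and with no block and also without the non-efferocytic library of Exp. 1 or the efferocytic library of Exp. 2, 0 passed. In thinned cells 1 fell, and without cells carrying markers of other types 5 fell and 1 rose, where 13.3% and 12.2% of all genes did. Of 15 kinetochore genes, 3 rose and 2 fell (0.05), of 15 mitotic entry genes 2 rose and 1 fell (0.20), of 9 anaphase genes 2 rose and none fell (0.06), and of 15 chromosome structure genes 2 rose and 2 fell (0.17). Beside them, 9.10% of all genes rose and 10.7% fell. In remaining cells 9 of the 25 spindle and 8 of the 15 chromosome structure genes fell (20.8% of all genes did). The interaction passed upward for 7 and 6 genes of these lists and downward for 2 and 1, where 1.66% and 0.911% of all genes passed. The 10 rule genes are left out of these list counts, because the rule itself limits their levels in remaining cells. Against remaining cells with 0 rule genes, 203 of 13394 genes passed upward and 139 downward. How far the rule shapes these interactions was not tested. Scaled by the number of cells, 19 of the spindle, 12 of the kinetochore and 12 of the mitotic entry genes rose. With this scaling 55.4% of all genes rose and 4.35% fell, together 59.8%, beside the shift of 0.487.

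Ccnb2, a mitotic cyclin gene whose upstream match to the CHR letters is printed above, stood at 305 and 235 CPM in the non-efferocytic and at 161 and 155 CPM in the efferocytic cycling cells (-0.74 ± 0.12, adjusted p = 0.000416). The partner kinase gene Cdk1 stood at 208 and 159 CPM against 244 and 240 CPM (0.43 ± 0.12, adjusted p = 0.0177). The call of Cdk1 was lost in 6 alternatives and that of Ccnb2 in 3. Ccnb1 did not pass in cycling cells (-0.10 ± 0.12, adjusted p = 0.573). It rose by 1.05 in remaining cells, and the interaction was -1.02 ± 0.20 (adjusted p = 0.0134).

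Among kinetochore genes, Cenpa, the centromeric histone, stood at 577 and 537 CPM in the non-efferocytic and at 344 and 332 CPM in the efferocytic libraries (-0.70 ± 0.12, adjusted p = 0.00101). Cenpe fell by 0.36 (adjusted p = 0.0296), while it stood at 0.13 when scaled by the number of cells. Spc25 and Spc24, of the microtubule-binding Ndc80 complex, rose by 0.52 and 0.36 (adjusted p = 0.00374 and 0.0337), and the checkpoint gene Mad2l1 rose by 0.42 (adjusted p = 0.022). Of the spindle genes, Ckap2 fell by 0.66 (adjusted p = 0.000954), Knstrn by 0.52 (adjusted p = 0.00782) and the cytokinesis kinesin Kif20a by 0.50 (adjusted p = 0.015). The call of Cenpa was lost in 1 alternative and that of Cenpe in 9. Those of Spc24 and Kif20a were lost in 7, of Mad2l1 in 6, of Ckap2 and Knstrn in 5 and of Spc25 in 4.

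Among the chromosome structure genes, Hmgn2, a nucleosome-binding protein gene, stood at 403 and 399 CPM in the non-efferocytic and 205 and 196 CPM in the efferocytic cycling cells (-0.98 ± 0.12, adjusted p = 4.21e-05), but the fold change was -0.33 without cells carrying markers of other types. Hmgb2 stood at 991 and 927 CPM against 668 and 646 CPM (-0.53 ± 0.13, adjusted p = 0.0121), and at -0.22 without those cells, where it was not called. Ube2c, the ubiquitin-conjugating enzyme of the anaphase-promoting complex, did not pass in cycling cells (791 and 583 CPM against 632 and 534 CPM), fell by 1.88 in remaining cells and had an interaction of 1.79 ± 0.12 (adjusted p = 1.01e-06). Fbxo5, an inhibitor of that complex, rose by 0.51 (adjusted p = 0.0159) with an interaction of 1.04 ± 0.19 (adjusted p = 0.0109).

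Inhibitors of the cell cycle moved in opposite directions. Of 18 G1 cyclin, CDK inhibitor and quiescence genes, 5 rose and 7 fell in efferocytic cycling cells (median -0.20), where 9.10% and 10.7% of all genes did. The antiproliferative gene Btg2 stood at 69.2 and 50.2 CPM in the non-efferocytic and at 16.6 and 13.8 CPM in the efferocytic libraries (-1.94 ± 0.14, adjusted p = 2.45e-07). Cdkn1a, which encodes the p53-induced CDK inhibitor p21, stood at 461 and 320 CPM against 205 and 116 CPM (-1.30 ± 0.13, adjusted p = 5.43e-06). In both genes the groups were wide apart. Cdkn1b, which encodes p27, fell by 0.72 (adjusted p = 0.0031), and Btg1 by 1.00 (adjusted p = 2.96e-05).

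Cdkn1c, which encodes the CDK inhibitor p57, went the other way and was the gene with the largest rise by the naming rule. It stood at 8.24 and 4.18 CPM in the non-efferocytic and at 26.0 and 28.8 CPM in the efferocytic libraries (2.23 ± 0.24, adjusted p = 1.1e-05). Remaining cells held more of it, at 12.0 and 12.0 CPM against 46.0 and 66.9 CPM, and the interaction did not pass (-0.02). Rbl1 (0.74), Ccnd1 (0.55), Cdk6 (0.49) and Cdk4 (0.44) also rose. These changes of Cdkn1a, Btg2 and Cdkn1c were of similar size in the remaining cells, at -1.44, -1.80 and 2.32.

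Of 13 apoptosis and p53 target genes tested, 7 fell and 2 rose (median -0.39), where 10.7% and 9.10% of all genes did. Trp53inp1, a p53 target, stood at 39.8 and 36.2 CPM in the non-efferocytic and at 13.1 and 8.55 CPM in the efferocytic cycling cells (-1.84 ± 0.18, adjusted p = 5.43e-06). Bbc3, which encodes the pro-apoptotic protein PUMA, stood at 34.3 and 30.5 CPM against 13.8 and 9.62 CPM (-1.48 ± 0.18, adjusted p = 3.79e-05). The survival gene Bcl2l1 rose from 22 and 16.3 CPM to 43.3 and 53.8 CPM (1.39 ± 0.16, adjusted p = 3.29e-05). Bcl2a1b rose by 1.45 (adjusted p = 4.7e-05), and its reads are uncertain because it has near-identical paralogs.

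**Figure D5:**
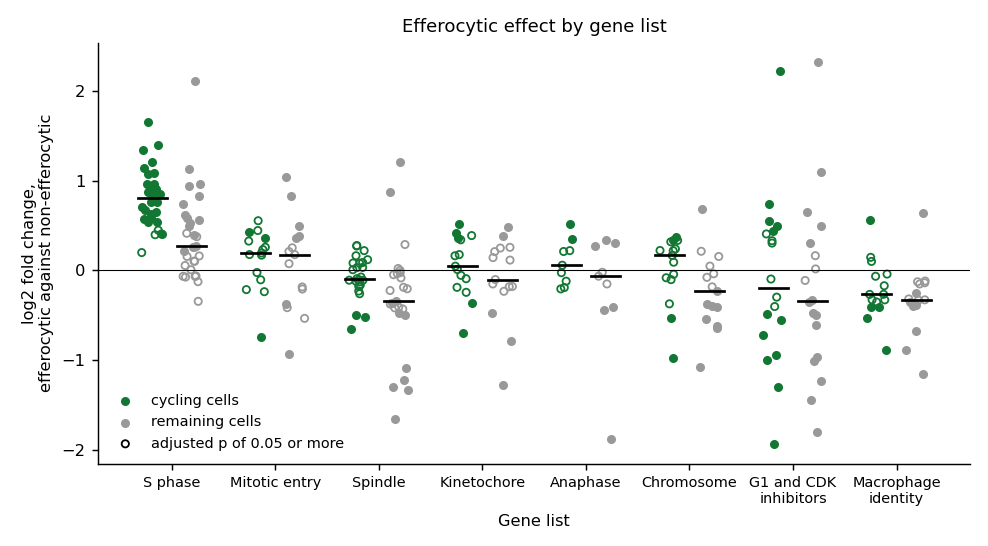
Log2 fold change of efferocytic against non-efferocytic cells (vertical axis) for each gene of 8 lists, in cycling cells (green) and remaining cells (grey), with filled points for an adjusted p under 0.05, open points otherwise and bars at the medians. In cycling cells the S phase median was 0.80, and the medians of the mitotic lists lay between -0.09 and 0.20.

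Cycling cells also took part in changes that are not of the cell cycle. All 7 MHC class II genes, which present antigen, fell in efferocytic cycling cells (median -2.52), where 10.7% of all genes fell. Cd74, the invariant chain gene, stood at 91.8 and 534 CPM in the non-efferocytic and at 10.6 and 70.4 CPM in the efferocytic libraries (-2.98 ± 0.13, adjusted p = 4.16e-09). The fall held within each experiment, but levels also differed between the experiments, and without the non-efferocytic library of Exp. 2, in a fit without the block, 1 of 6 genes fell and the median was -0.43. In remaining cells all 7 fell (median -3.43), where 20.8% of all genes did. None of the 7 had an interaction that passed, although all their interaction values lay above 0 (0.08 to 1.73, median 0.83).

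Of 17 HIF target and glycolysis genes tested, 13 rose and 1 fell (median 0.75), where 9.10% and 10.7% of all genes did. Mif, which encodes the cytokine MIF, stood at 243 and 220 CPM in the non-efferocytic and 512 and 457 CPM in the efferocytic cycling cells (1.08 ± 0.12, adjusted p = 1.94e-05). Ldha, which encodes lactate dehydrogenase A, stood at 273 and 250 CPM against 488 and 479 CPM (0.91 ± 0.12, adjusted p = 9.6e-05), and Vegfa fell by 0.64 (adjusted p = 0.0327). The call of Vegfa was lost in 9 alternatives, among them the fit with no block and that without cells carrying markers of other types. In remaining cells 17 of 19 rose (median 1.14), where 21.2% of all genes did. The interaction passed for 3 of 19, where 0.911% of all genes passed downward, each with the lower effect in cycling cells, namely Pgam1 at -0.46 ± 0.06 (adjusted p = 0.00129), Eno1 at -0.32 ± 0.07 (adjusted p = 0.0352) and the low-level gene Egln3 at -2.33 ± 0.59 (adjusted p = 0.0497). Of the 19, 1 passed without cells carrying markers of other types, and 0 of 18 passed against depth-matched remaining cells.

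Of 15 lipid handling and engulfment genes tested, 10 rose and 1 fell (median 1.09), beside the same 9.10% and 10.7%. Cd36, a scavenger receptor gene, stood at 391 and 459 CPM in the non-efferocytic and 1514 and 1398 CPM in the efferocytic cycling cells (1.80 ± 0.15, adjusted p = 1.45e-06). Plin2, which coats lipid droplets, rose by 1.34 (adjusted p = 3.11e-05), Nr1h3, which encodes the sterol sensor LXRα, by 1.47 (adjusted p = 6.36e-05), and Msr1 by 1.25 (adjusted p = 3.8e-06). The receptor gene Axl fell by 0.78 (adjusted p = 0.00673). Spp1 and Cd300lf rose less in cycling than in remaining cells, with interactions of -0.51 ± 0.11 (adjusted p = 0.0205) and -1.31 ± 0.23 (adjusted p = 0.00665).

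Among called genes outside the rule that averaged 10 CPM or more and had one sign in both experiments, the 10 largest falls in cycling cells were of Ighm (-3.40), H2-Eb1 (-3.04), Cd74 (-2.98), Fxyd2 (-2.88), Pglyrp1 (-2.85), Cd177 (-2.82), Ephx1 (-2.70), Tagln (-2.70), Ms4a3 (-2.66) and H2-Ab1 (-2.63). Pglyrp1, Cd177 and Ms4a3 are neutrophil-lineage genes and Tagln a smooth muscle and fibroblast gene, and these 4 were too low to be tested without the cells carrying markers of other types. After Cdkn1c, the largest rises were of Plpp3 (1.87), Cd36, Npy (1.74), Nckap5l (1.71), the interleukin 1 receptor antagonist gene Il1rn (1.65), the P450 reductase gene Por (1.55), Prss46 (1.54), Hist1h1b and the lysosomal channel gene Mcoln3 (1.52).

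Of the 15 macrophage identity genes, 4 fell and 1 rose in efferocytic cycling cells (median -0.27), where 10.7% and 9.10% of all genes did. Without cells carrying markers of other types 7 fell and 1 rose (median -0.34), where 13.3% and 12.2% of all genes did. With all cycling cells, 7 of the 15 had both efferocytic libraries below both non-efferocytic libraries, as 30.5% of all genes had. Csf1r, the M-CSF receptor gene, stood at 512 and 449 CPM in the non-efferocytic and at 263 and 247 CPM in the efferocytic cycling cells (-0.89 ± 0.12, adjusted p = 0.000108), and its fall was smaller than in remaining cells (-1.15, interaction 0.39 ± 0.07, adjusted p = 0.00658). Cd68, a lysosomal glycoprotein gene, stood at 813 and 782 CPM against 1121 and 1205 CPM (0.56 ± 0.14, adjusted p = 0.00986). Across all genes the efferocytic effect differed between cycling and remaining cells for 230 genes (1.66%) in the upward and 126 genes (0.911%) in the downward direction, together 2.57%.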

How the data were processed

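Single-cell 3′ RNA-seq (10x Genomics, chemistry 3.1) was measured in 4 libraries. The values deposited by the authors are raw counts of UMIs for each gene in each barcode; Cell Ranger 3.0.0 wrote the headers of Exp. 1 and 3.1.0 those of Exp. 2, and the submitters' processing notes name Cell Ranger 3.0.0, Seurat 3.1 and mm10. The files hold 31053 genes, and strand-specific counting is not given in the sources used here. Cells and cycling cells were found by the rule given in the report. The cycling cells, gene lists and tests were chosen with earlier results of these data known. Counts were summed over cells per library and tested with edgeR 4.0.16 (R 4.3.3; TMM, filterByExpr, quasi-likelihood, Benjamini-Hochberg over all genes tested, adjusted p under 0.05), with the experiment, or for the interaction the library, as a block. The code was tested on simulated data.

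The experiment given in the labels pairs the libraries, and deviations of paired libraries correlated at r = 0.552 over 7578 genes in cycling cells. Shares were compared by exact permutation over libraries, which does not use this pairing. The remaining work used Python 3.11.15, scanpy 1.11.5 and scipy 1.17.1. Named genes were, outside the rule's own 14 genes, up to 4 per list and direction, the 10 largest called changes in each direction averaging 10 CPM or more and of one sign in both experiments, the 10 largest interactions in each direction, and the 10 genes furthest above and below the remaining cells, apart from Ung, Mki67, Ccnb1, the S phase genes that were not called and others given as examples, which were chosen after their values were seen. Alternatives were no block, DESeq2 1.42.0, library totals, UMIs per cell, other gene filters, other thresholds, thinning, doublets left out (the top Scrublet scores at 0.8% per 1000 cells, since its own threshold marked 0 cells), cells with an epithelial UMI left out, and each library left out. Leaving out cells with markers of other types or with shared barcodes, and at least 6 rule genes in the interaction, were chosen after seeing the data.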

Additional observations from a re-analysis of the deposited data

Results flagged for a closer look

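The share of cycling cells differed between efferocytic and non-efferocytic libraries by -0.052 percentage points in Exp. 1 and by 1.73 percentage points in Exp. 2, and this difference between the experiments was not tested. The efferocytic effect differed between cycling and remaining cells for 230 genes in the upward and 126 genes in the downward direction by the interaction test of edgeR, and 13 S phase genes were among the first group.

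Among genes averaging 10 CPM or more in cycling cells, the largest upward interactions (log2) were of Timp3 (3.31), Hist1h1b (2.75), Fam83d (2.68), Hist1h1e (2.06), Tmem176a (2.05), Pbk (1.93), Hist1h2ap (1.91), Tmem176b (1.88), Ube2c (1.79) and Cxcl2 (1.78). Hist1h1b, Hist1h1e, Hist1h2ap, Pbk, Fam83d and Ube2c are genes of replicating or dividing cells, and the interaction of Fam83d was lost in 9 alternatives, with a value of 0.18 against depth-matched remaining cells. Pbk, a mitotic kinase gene, stood at 23.4 and 33.0 CPM in non-efferocytic and at 62.2 and 67.0 CPM in efferocytic cycling cells, against 0.456 to 1.06 CPM in remaining cells. Among the same genes, the largest downward interactions were of AA467197 (-1.56), Gm14005 (-1.40), Fkbp11 (-1.37), Cd300lf (-1.31), Cd24a (-1.27), Gm16104 (-1.26), F13a1 (-1.21), Ms4a3 (-1.19), Tcp11l2 (-1.14) and Mettl27 (-1.14). Without cells carrying markers of other types, the interactions of Timp3, Fam83d, Pbk, Tmem176a, Tmem176b, Cd24a, Fkbp11 and Ms4a3 no longer passed.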

How the results depend on the processing

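Against 960 genes higher and 1131 lower in efferocytic cycling cells, the fit with no replicate block called 579 and 667, DESeq2 168 and 227, scaling by UMIs per cell 5846 and 459, and thinning 264 and 359. Fits with no block that left out the non-efferocytic library of Exp. 1, the efferocytic of Exp. 1, the non-efferocytic of Exp. 2 or the efferocytic of Exp. 2 called 134, 577, 389 and 239 higher and 193, 713, 586 and 304 lower. Of the genes called with no block, 578 of 579 and 667 of 667 were among those called with it. Of those called without cells carrying markers of other types, 859 of 1207 higher and 842 of 1316 lower were. The S phase count of 26 was 22 with no block, 10 with DESeq2, 5 with thinning and 14, 23, 18 and 12 with these libraries left out. In remaining cells (2899 and 2853), no block gave 1359 and 1202, DESeq2 1446 lower, library totals 1910 higher and 3904 lower, UMIs per cell 7101 and 727, and leaving out the same libraries 238, 1500, 128 and 542 higher and 290, 1158, 177 and 481 lower.

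Against 230 and 126 interactions, DESeq2 called 78 higher and a mean of at least 10 CPM gave 116 higher. Depth-matched remaining cells gave 245 higher and 80 lower, and leaving out cells of other types gave 215 higher and 201 lower. Of the 230 and 126, only 90 and 59 were also called against depth-matched cells, and 139 and 90 without cells of other types. Leaving out the same libraries in turn, with the block, gave 105, 205, 360 and 108 higher and 81, 219, 231 and 239 lower. With no block 0 and 0 passed, although 915 had an unadjusted p under 0.05 and DESeq2 called 87 lower. The 13 S phase interactions became 6 with DESeq2, 0 with no block, 6 with matched cells and 8 to 13 with 1 library left out. For the rule genes over all cells (1 lower), no block and DESeq2 gave 0, library totals 4 lower, UMIs per cell 4 higher and 0 lower, and leaving out 1 library 0 to 2 higher and 0 lower. The 6 genes lower than in remaining cells became 3 against matched cells and 1 without other types. The mean difference in share, 0.840 points, ran from 0.106 to 1.57 with 1 library left out, where no test was run. In the settings that kept all libraries, its exact permutation p ran from 0.333 to 1.

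Signs changed for Mcm2 with thinning (-0.11), for Ccnb1 (0.39), Cenpe (0.13) and Ccng2 (0.0039) with UMIs per cell, for H2-Eb1 (0.68) and H2-Aa (0.72) without the non-efferocytic library of Exp. 2, and for the interactions of Ms4a3 (0.19) against remaining cells with 0 rule genes and Fkbp11 (0.35) against matched cells; the cause was not tested. Over all named genes and settings in cycling cells, 1381 values kept their side of the threshold, 203 lost a call, 15 gained one and 6 changed sign. For the interactions these numbers were 425, 122, 0 and 2. A change of sign was counted only for a gene called in the main fit or in the alternative. With 4 libraries and a block, 1 residual degree of freedom remains per gene, and edgeR borrows spread across genes. Genes under about 10 CPM rest on few UMIs in 155 to 318 cells per library.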

Other observations

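Of 14 interferon response genes tested in cycling cells, 6 fell and none rose (median -0.36 on the log2 scale), where 10.7% of all genes fell. The chemokine gene Cxcl10 stood at 14.3 and 5.64 CPM in the non-efferocytic and at 3 and 1.20 CPM in the efferocytic libraries (-2.20 ± 0.35, adjusted p = 0.000395), and the antiviral gene Rsad2 at 48.1 and 17.8 CPM against 26.5 and 8.68 CPM (-0.90 ± 0.17, adjusted p = 0.00142). For Rsad2 the groups overlapped, since Exp. 1 lay above Exp. 2 in both. In remaining cells 9 of 15 fell (median -0.51), where 20.8% of all genes did, and no interaction passed.

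Of 18 MYC and ribosome biogenesis genes 6 rose and none fell (median 0.40), and of 18 oxidative phosphorylation genes 6 rose and none fell (median 0.21), where 9.10% of all genes rose. In remaining cells 13 and 11 of these rose, where 21.2% of all genes did, and no interaction passed in either list.

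All 4 monocyte genes fell (median -2.10), where 10.7% of all genes did, and 2 of them could be tested without cells carrying markers of other types. Of 7 mature neutrophil genes 6 fell (median -2.27), and 2 of the 7 could be tested without those cells, which were partly chosen by these genes. Of 8 epithelial genes tested, 4 fell (median -0.77). In Exp. 2 nearly all epithelial UMIs lay in 1 cycling cell per library, both with the same barcode: without shared barcodes 11 of 1528 were left in the non-efferocytic and 2 of 1418 in the efferocytic library, and none of the 8 genes could be tested. Genes of red cells, lymphocytes, mast cells, dendritic cells and progenitors gave at most 1 testable gene per list in cycling cells, and none was called. The erythroid genes summed to 54.3 CPM in the non-efferocytic cycling cells of Exp. 2 and to at most 1.60 CPM in the other libraries.

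The cycling cell whose barcode occurred in both libraries of Exp. 2 had 276 epithelial UMIs per 10000 in each.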
